A study of Mus musculus with 12 samples.

Results

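Lysosomal hydrolases and lysosomal membrane proteins are described here as a set of 42 given genes, taken from the deposited tables by symbol, out of 57180 genes in all. The set holds 11 cathepsins and other proteases, 11 glycosidases, 3 sulfatases, 7 genes of lipid breakdown and lipid handling, 6 membrane proteins, 2 subunits of the proton pump, the transcription factor Tfeb and the secreted cofactor progranulin (Grn). All 42 passed the filter on low counts, which left 17820 genes for testing. Total RNA of injured mouse spinal cord was sequenced as bulk tissue in 12 libraries, 3 groups of 4 that the labels call biological replicates. OVX8_SCI7 mice had their ovaries removed 8 weeks before a clip compression of the cord at T9-T10, OVX2_SCI7 mice had the same operation 2 weeks before it, and SCI7 mice had the compression alone. All were female wild-type C57BL/6J mice, and the cord was taken 7 days after injury with about 0.5 cm on each side of the lesion. No sham operation and no uninjured cord was analysed here, so ovariectomy cannot be told apart from surgery as such. The labels give an age of 8 weeks for every mouse, which cannot be the age at collection in OVX8_SCI7, so age may differ between the groups as well.

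Lysosomes are acid compartments in which proteins, glycans, lipids and nucleic acids taken up or made by the cell are broken down. Soluble hydrolases reach them mostly by a mannose 6-phosphate tag, a rotary ATPase pumps protons into the lumen, and heavily glycosylated membrane proteins line the wall. In an injured spinal cord, macrophages and microglia that engulf myelin and dead cells are known for a high content of lysosomal enzymes. TFEB, a factor of the MiT/TFE family, binds an E-box element that many lysosomal gene promoters share, and inherited loss of single hydrolases causes the lysosomal storage diseases.

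Library totals ran from 18222729 to 31781695 counts, OVX8_SCI7 replicate 2 being the deepest. Markers of cord tissue were abundant in every group. The 7 astrocyte markers summed to 5121 to 7198 TPM (length-scaled transcript abundance, as deposited) in OVX8_SCI7, 3331 to 8921 in OVX2_SCI7 and 5999 to 6784 in SCI7. The 8 oligodendrocyte markers summed to 16753 to 23444, 11160 to 30814 and 18493 to 22210 TPM in the same groups. The libraries of a group were not alike in other respects. Mitochondrial transcripts held 2.2 to 3.36% of the counts in OVX8_SCI7, 2.36 to 8.33% in OVX2_SCI7 and 5.35 to 9.35% in SCI7. A library's log expression relative to each gene's mean over the 12 libraries had a trend on transcript GC content. As Spearman's rho over coding genes, this trend was 0.18 to 0.87 in OVX8_SCI7, -0.44 to 0.54 in OVX2_SCI7 and -0.85 to -0.53 in SCI7. Replicate 2 of OVX2_SCI7 had 576 TPM of summed sensory neuron transcripts, against 8.06 to 156 TPM in the other 11 libraries.

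Some promoters of the set hold the E-box that TFEB binds, and most do not. The full palindrome TCACGTGA, whose core is CACGTG, was searched in promoters of RefSeq on GRCm38.p6, an older build than GRCm39, which the submitters' processing notes name. Both motifs read the same on both strands, and every TCACGTGA also counts as a CACGTG. A promoter is 250 bases before to 50 after a gene start, and 36 of the 42 genes had one. TCACGTGA was present for 6 of the 36 genes (16.7%), against 0.974% of all 32851 promoters and 1.12% of all 27025 genes. CACGTG was present for 13 of the 36 (36.1%), against 7.15% of promoters and 8.09% of genes. A match of letters is not a binding site, and its absence says only that the letters are not in this window. The 6 genes with the full palindrome are shown with up to 40 bases on each side, ending at the gene start, since they include the most abundant hydrolase and also the pump subunit with a fold change below 0. The motif is in capitals.
Ctsd: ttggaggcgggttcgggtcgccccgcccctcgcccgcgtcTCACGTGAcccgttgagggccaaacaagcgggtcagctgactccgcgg
Ctsa: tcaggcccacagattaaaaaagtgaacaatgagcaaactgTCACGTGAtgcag
Atp6v1a: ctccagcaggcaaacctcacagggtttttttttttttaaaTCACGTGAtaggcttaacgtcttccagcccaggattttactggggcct
Mcoln1: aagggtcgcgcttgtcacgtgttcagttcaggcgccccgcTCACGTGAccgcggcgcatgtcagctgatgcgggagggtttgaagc
Cln3: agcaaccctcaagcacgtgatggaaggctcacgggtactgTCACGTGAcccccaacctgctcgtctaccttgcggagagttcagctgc
Gla: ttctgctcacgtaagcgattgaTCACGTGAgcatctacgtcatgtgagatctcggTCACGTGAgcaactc
The stretch of Ctsd lies at chr7:142387879-142387966 on the minus strand and its motif begins at -99 from the gene start. That of Ctsa lies at chr2:164833720-164833772 on the plus strand, with the first motif at -13. The Ctsa promoter holds 2 matches, and the other lies outside the stretch shown. Atp6v1a lies at chr16:44139344-44139431 (minus, motif at -132), Mcoln1 at chr8:3500433-3500518 (plus, -46), Cln3 at chr7:126583311-126583398 (minus, -122) and Gla at chrX:134601186-134601255 (minus, first motif at -228). In OVX8_SCI7 over SCI7, none of the 6 passed the test described further on, and their log2 fold changes were 1.03 for Ctsd, 0.90 for Ctsa, 0.63 for Cln3, 0.35 for Gla, 0.25 for Mcoln1 and -0.48 for Atp6v1a, so the genes with the palindrome lay on both sides of 0.

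The set was expressed at very unequal levels, compared per length in TPM over all 12 libraries. Ctsd, the aspartic protease cathepsin D, stood at 6184 TPM and held 27.4% of the summed TPM of the set. Ctsb, a cysteine cathepsin, followed at 3393 TPM, and Psap, the precursor of the saposins that present lipids to their hydrolases, at 3384 TPM. These 3 genes held 57.5% of the sum. Ctss, a cathepsin of antigen-presenting cells, stood at 1319.5 TPM, and Lamp1, a major glycoprotein of the lysosomal wall, at 1049.7 TPM. At the low end were Tfeb (26.4 TPM), the iduronidase gene Idua (20.1), the mannosidase gene Manba (17.2) and the heparan sulfamidase gene Sgsh (13.1). The 42 genes together held 2.66, 2.67, 2.70 and 3.34% of all TPM in the 4 OVX8_SCI7 libraries, 1.08, 1.60, 3.09 and 3.00% in OVX2_SCI7 and 1.62, 2.05, 0.803 and 2.45% in SCI7, in replicate order. OVX8_SCI7 thus stood above every SCI7 library, while the OVX2_SCI7 libraries lay on both sides of them.

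The log2 ratio of each library to the gene's mean was taken over the whole set. OVX8_SCI7 libraries had a median of 0.26 to 0.54, with 32 to 38 of the 42 genes above their own mean. OVX2_SCI7 libraries had medians of -0.81, -0.38, 0.67 and 0.56 in replicate order. SCI7 libraries had medians of -0.19, -0.13, -1.17 and 0.09, and in replicate 3 of SCI7 a single gene was above its mean.

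**Figure D1:**
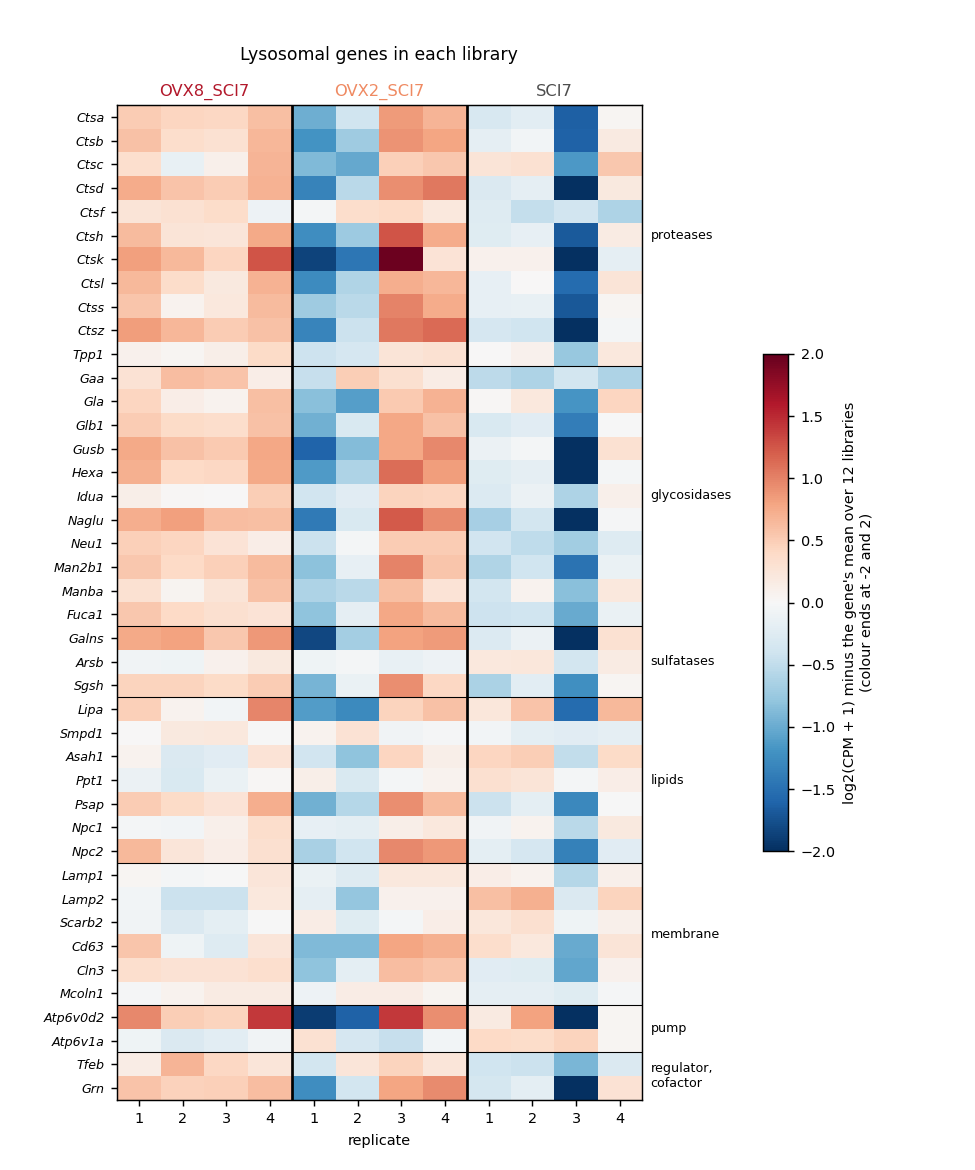
Each row is a lysosomal gene, ordered by role, and each column a library; colour is log2(CPM + 1) minus the gene's mean over 12 libraries. OVX8_SCI7 is above the mean for most genes in all 4 libraries, and OVX2_SCI7 replicates 1 and 2 and SCI7 replicate 3 are below it for most genes. Atp6v1a and Lamp2 are highest in libraries of SCI7.

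Against SCI7, most hydrolases had fold changes above 0 in OVX8_SCI7, and 5 genes of the set passed the test as higher. They were the cathepsin gene Ctsf, the glycosidase genes Gaa, Neu1 and Man2b1, and Tfeb. None passed as lower, against 15.6% of all genes. The 5 genes are 11.9% of the set, and 11.9% of all genes tested were also called higher, so the share of calls equalled that of the background (edgeR quasi-likelihood test, p adjusted by Benjamini-Hochberg over the 17820 genes, threshold 0.05). The fold changes of the set lay higher than those of other genes: 36 of 42 were above 0, against 50.9% of all genes, and the median log2 fold change was 0.75, against 0.01. In 24 of the 42 genes (57.1%) every OVX8_SCI7 library lay above every SCI7 library, which held for 19.6% of all genes. In 1 gene, Atp6v1a, every OVX8_SCI7 library lay below, against 19.6% of all genes. The 5 calls depended on 1 library, since without OVX8_SCI7 replicate 2 neither they nor any other gene passed, and on base composition, described further on. As bulk tissue was sequenced, fewer or more cells of a type and less or more RNA per cell cannot be told apart.

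All 11 proteases had a fold change above 0 in OVX8_SCI7 against SCI7, as had 50.9% of all genes. The values ran from 0.15 to 1.21 on the log2 scale with a median of 0.76. Of the proteases, 1 passed (9.09%, against 11.9% of all genes called higher). Ctsf encodes cathepsin F, a cysteine protease of the papain family. It had 56.4, 58.1, 60.9 and 43.6 CPM (counts scaled to library size with TMM) in OVX8_SCI7, 45.6, 60.1, 61.9 and 54.4 in OVX2_SCI7 and 38.9, 33.4, 35.6 and 30.2 in SCI7. Every library of both ovariectomy groups was above every SCI7 library, and Ctsf was the single gene of the set for which this held in OVX2_SCI7 (2.38% of the set, against 6.13% of all genes). Its log2 fold change over SCI7 was 0.67 ± 0.15 (SE) in OVX8_SCI7, with an adjusted p of 0.0143 in the edgeR quasi-likelihood test.

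Ctsd, which also opens the list by level, had 10115, 8955, 8583 and 9702 CPM in OVX8_SCI7, 2397, 4152, 11473 and 12468 in OVX2_SCI7 and 4936, 5338, 1164 and 6912 in SCI7. The lowest OVX8_SCI7 library was above the highest SCI7 library, and OVX2_SCI7 held the 2 highest libraries of all as well as 2 that were below 3 of the 4 SCI7 libraries. With that spread its log2 fold change in OVX8_SCI7 was 1.03 ± 0.56 (SE), with an adjusted p of 0.176 in the edgeR test. Other cathepsins had the same pattern of tight OVX8_SCI7 and scattered SCI7 values. Ctsb averaged 6365 ± 787 CPM (SD, n = 4 in each group) in OVX8_SCI7, 5271 ± 3365 in OVX2_SCI7 and 3757 ± 1584 in SCI7. Ctsz, a carboxypeptidase, averaged 613 ± 58.9, 527 ± 356 and 266 ± 128 CPM in the same groups. Ctsk, the collagen-degrading cathepsin best known from osteoclasts, averaged 80.2 ± 20.8 CPM in OVX8_SCI7, 64.9 ± 77.7 in OVX2_SCI7 and 36.2 ± 17.9 in SCI7. Ctsc, which activates serine proteases of granules, and Tpp1, a tripeptidyl peptidase, were the flattest proteases, with log2 fold changes of 0.15 and 0.23.

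The glycosidases, which strip sugars from glycans and glycolipids, gave 3 of the 5 calls. These are 27.3% of the class, against 11.9% of all genes called higher. All 11 had a fold change above 0, with a median of 0.87, against 50.9% of all genes above 0. Gaa encodes the acid glucosidase that breaks down glycogen in lysosomes. It had 341, 429, 413 and 306 CPM in OVX8_SCI7, 201, 392, 349.5 and 309.9 in OVX2_SCI7 and 193, 182, 217 and 180.3 in SCI7. Replicate 1 of OVX2_SCI7 lay within the SCI7 range, and the other 7 ovariectomy libraries lay above it. The log2 fold change of Gaa in OVX8_SCI7 was 0.95 ± 0.20 (SE), with an adjusted p of 0.0143 in the edgeR test.

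Neu1, the lysosomal sialidase, had 65.8, 63.8, 57.3 and 51.6 CPM in OVX8_SCI7, 34.8, 45.7, 67.3 and 67.4 in OVX2_SCI7 and 35.9, 32.8, 28.6 and 39.4 in SCI7. Its OVX8_SCI7 libraries were all above SCI7, by a log2 fold change of 0.80 ± 0.21 (SE) and an adjusted p of 0.0189 in the edgeR test. Man2b1 encodes the lysosomal alpha-mannosidase. It had 341, 309, 329 and 367 CPM in OVX8_SCI7, 133, 210.3, 469 and 346 in OVX2_SCI7 and 154, 179, 84.0 and 214 in SCI7. Its log2 fold change in OVX8_SCI7 was 1.09 ± 0.36 (SE), and its adjusted p of 0.0415 was the largest among the 5 calls. Fuca1, the alpha-fucosidase, missed the threshold at an adjusted p of 0.0544 in the edgeR test. Fuca1 had 138, 125, 118 and 114 CPM in OVX8_SCI7, 53.7, 83.1, 162 and 147 in OVX2_SCI7 and 70.8, 71.4, 46.5 and 85.9 in SCI7. In TPM its groups lay close together and overlapped, at 96.8 ± 5.72 (SD), 83.2 ± 22.6 and 88.6 ± 15.0 in the same order. Naglu, which acts on heparan sulfate, had the largest fold change of the set, 1.33 ± 0.53 (SE, log2), with an adjusted p of 0.0758 in the edgeR test. Hexa, the hexosaminidase alpha subunit, had 1.02, Gusb, the beta-glucuronidase, 0.91, and Glb1, the beta-galactosidase, 0.87 on the log2 scale. Gla, the alpha-galactosidase, and Idua had the smallest values of the class, 0.35 and 0.39.

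**Figure D2:**
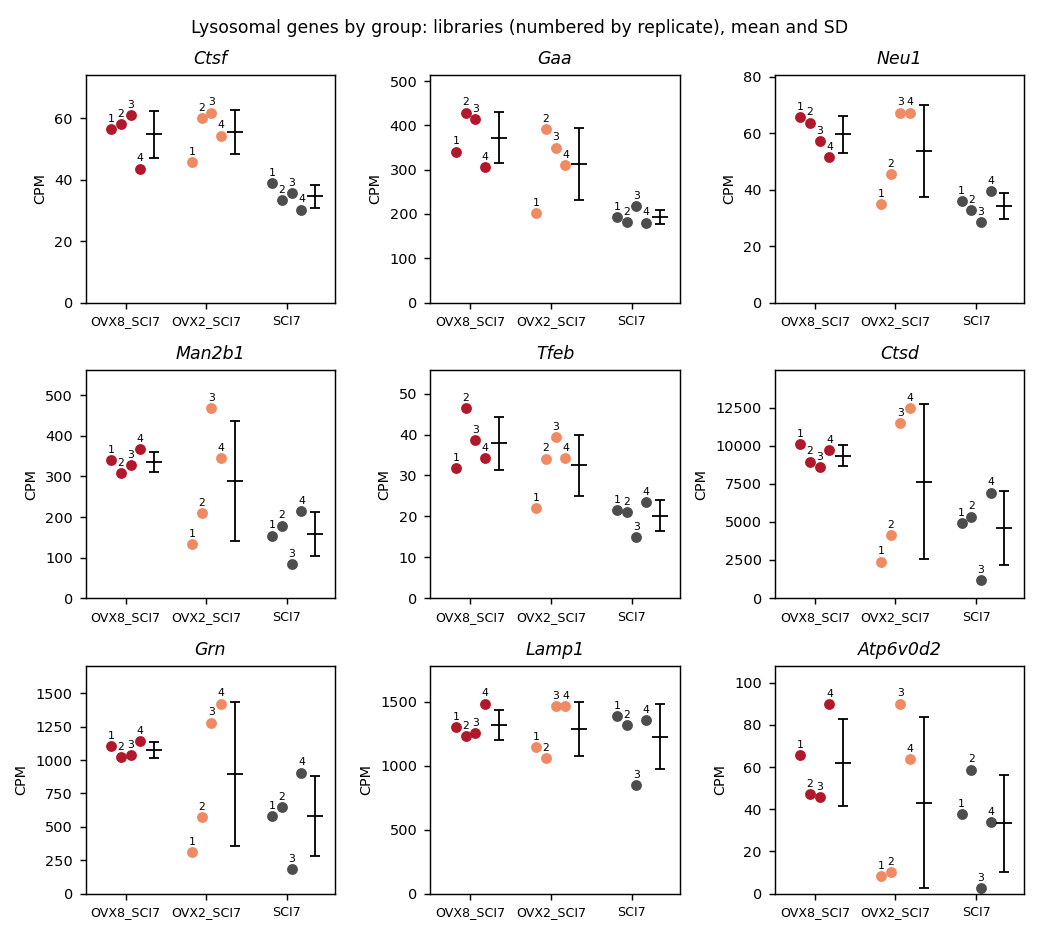
CPM of 9 lysosomal genes; points are libraries numbered by replicate, and the black bar with whiskers beside them is the mean ± SD of 4 libraries. OVX8_SCI7 lies above all SCI7 libraries in 7 panels, Lamp1 and Atp6v0d2 overlap, and in Man2b1, Ctsd and Grn the OVX2_SCI7 libraries run from within the SCI7 range to above the OVX8_SCI7 range.

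Of the 3 sulfatases, none passed the test. Sgsh, which removes sulfate from heparan sulfate, had 41.6, 41.6, 39.9 and 43.5 CPM in OVX8_SCI7, 15.4, 27.5, 59.0 and 40.6 in OVX2_SCI7 and 19.3, 26.0, 12.4 and 31.1 in SCI7. Its OVX8_SCI7 values lay within a narrow band above all SCI7 values, and the adjusted p was 0.0754 in the edgeR test for a log2 fold change of 0.91 ± 0.36 (SE). Galns, which acts on keratan sulfate, had a log2 fold change of 1.08, and Arsb, the arylsulfatase of dermatan sulfate, one of -0.04. Arsb differed little between groups, at 183 ± 17.7 CPM in OVX8_SCI7, 167 ± 5.16 in OVX2_SCI7 and 189 ± 33.7 in SCI7.

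No gene of lipid breakdown or lipid handling passed, and their directions were mixed, with a median log2 fold change of 0.24. Psap averaged 6386 ± 900.1 CPM in OVX8_SCI7, 5313 ± 3082 in OVX2_SCI7 and 3449 ± 1164 in SCI7. Npc2, which hands cholesterol to the membrane protein NPC1, averaged 389 ± 62.5, 393 ± 211 and 222 ± 69.6 CPM in the same groups. Both had OVX8_SCI7 libraries above all SCI7 libraries, and so did Smpd1, the acid sphingomyelinase, at 95.0 ± 7.60, 93.0 ± 10.9 and 78.9 ± 4.30 CPM. The acid lipase gene Lipa (log2 fold change 0.24) and Npc1 (0.16) overlapped with SCI7. Asah1, the acid ceramidase, and Ppt1, a thioesterase that removes palmitate from proteins, had fold changes below 0 (-0.28 and -0.30).

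The membrane proteins moved least, with a median log2 fold change of 0.10 in OVX8_SCI7 over SCI7, and none of the 6 passed. Lamp1 had 1303, 1230.3, 1257 and 1486 CPM in OVX8_SCI7, 1146, 1061, 1465 and 1463 in OVX2_SCI7 and 1391, 1319, 847 and 1354 in SCI7. The groups overlapped, and the log2 fold change of Lamp1 was 0.10 ± 0.20 (SE), with an adjusted p of 0.716 in the edgeR test. Lamp2, its close relative with a part in chaperone-mediated autophagy, ran from 329.8 to 514 CPM in OVX8_SCI7, from 260.2 to 474 in OVX2_SCI7 and from 365 to 730.0 in SCI7. Its log2 fold change of -0.57 was the lowest of the set and did not pass (adjusted p 0.115 in the edgeR test). Scarb2, the receptor that carries glucocerebrosidase to lysosomes, had -0.28, the tetraspanin gene Cd63 0.10, and the calcium channel gene Mcoln1 0.25. Cln3, mutated in juvenile Batten disease, was the single membrane gene whose OVX8_SCI7 and SCI7 libraries did not overlap in CPM. It averaged 36.1 ± 0.680 CPM in OVX8_SCI7, 32.3 ± 14.0 in OVX2_SCI7 and 23.3 ± 7.21 in SCI7. In TPM Cln3 did overlap, at 52.5 ± 9.39, 42.2 ± 9.66 and 46.3 ± 17.3 in the same groups.

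The subunits of the proton pump differed from each other. Atp6v1a, the catalytic subunit of the ATPase found in nearly all cells, had 352, 305, 322 and 356 CPM in OVX8_SCI7, 462, 295, 271 and 359 in OVX2_SCI7 and 491, 485, 507 and 383 in SCI7. Every OVX8_SCI7 library was below every SCI7 library, but the adjusted p was 0.0648 in the edgeR test for a log2 fold change of -0.48 ± 0.18 (SE). Atp6v0d2 is a membrane subunit enriched in osteoclasts and some macrophages. It had 65.5, 47.2, 45.6 and 89.9 CPM in OVX8_SCI7, 8.11, 10.2, 90.2 and 64.0 in OVX2_SCI7 and 37.7, 58.9, 2.73 and 34.0 in SCI7. Values within OVX2_SCI7 and within SCI7 differed more than the groups did, and the adjusted p of Atp6v0d2 was 0.417 in the edgeR test.

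Tfeb, the regulator, and Grn, which is cleaved to granulins in lysosomes, were both above SCI7 in all 4 OVX8_SCI7 libraries. Tfeb had 31.9, 46.5, 38.7 and 34.3 CPM in OVX8_SCI7, 22.0, 34.2, 39.4 and 34.3 in OVX2_SCI7 and 21.5, 21.0, 14.8 and 23.5 in SCI7. Replicate 1 of OVX2_SCI7 lay within the SCI7 range. The log2 fold change of Tfeb in OVX8_SCI7 was 0.91 ± 0.20 (SE), with an adjusted p of 0.0145 in the edgeR test. Grn had 1102, 1022, 1036 and 1144 CPM in OVX8_SCI7, 313, 573, 1281 and 1423 in OVX2_SCI7 and 578, 650.2, 185 and 906 in SCI7. Grn had nearly the same log2 fold change, 0.89, but an SE of 0.49 and an adjusted p of 0.179 in the edgeR test.

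Against SCI7, no gene passed in OVX2_SCI7, neither of the set nor of all genes (0% called in the edgeR test). At an unadjusted p under 0.05, 5787 genes lay in either direction (32.5%), among them 7 genes of the set that were higher, against 17.5% of all genes, and 2 that were lower, against 15%. DESeq2 called 3683 genes in this comparison, 11% of all genes as higher, with Ctsf, Gaa, Neu1 and Tfeb among them. The median log2 fold change of the set was 0.47, against 0.04 for all genes, and 34 of the 42 were above 0, against 52.5% of all genes. The 5 genes called in OVX8_SCI7 had log2 fold changes in OVX2_SCI7 of 0.68 (Ctsf), 0.70 (Gaa), 0.65 (Neu1), 0.88 (Man2b1) and 0.68 (Tfeb). Their adjusted p in OVX2_SCI7 was 0.0520 for Ctsf, 0.0576 for Gaa, 0.0601 for Tfeb, 0.0652 for Neu1 and 0.117 for Man2b1 in the edgeR test. Both comparisons share the SCI7 libraries. When replicate 1 of OVX2_SCI7, with 8.33% mitochondrial counts, was left out, 9 genes of the set were called higher in OVX2_SCI7 and Atp6v1a lower, among 6264 genes. Of all genes, 17.1% were then called higher and 17.6% lower.

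Set directly against each other, the ovariectomy groups gave no call in the set or among all genes (0% called in the edgeR test). At an unadjusted p under 0.05, 393 of all genes lay in either direction (2.21%), with none of the set. DESeq2 called 6 genes, again with none of the set. The median log2 fold change of OVX8_SCI7 over OVX2_SCI7 was 0.22 for the set and -0.03 for all genes, and the value was above 0 for 36 of the 42 genes, against 44.5% of all genes. An effect called against SCI7 in OVX8_SCI7 and not in OVX2_SCI7 was therefore not shown to differ between them. The joint edgeR test of the 3 groups called 4 genes of the set, Ctsf, Gaa, Neu1 and Tfeb of 42, against 14.8% of all genes.

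**Figure D3:**
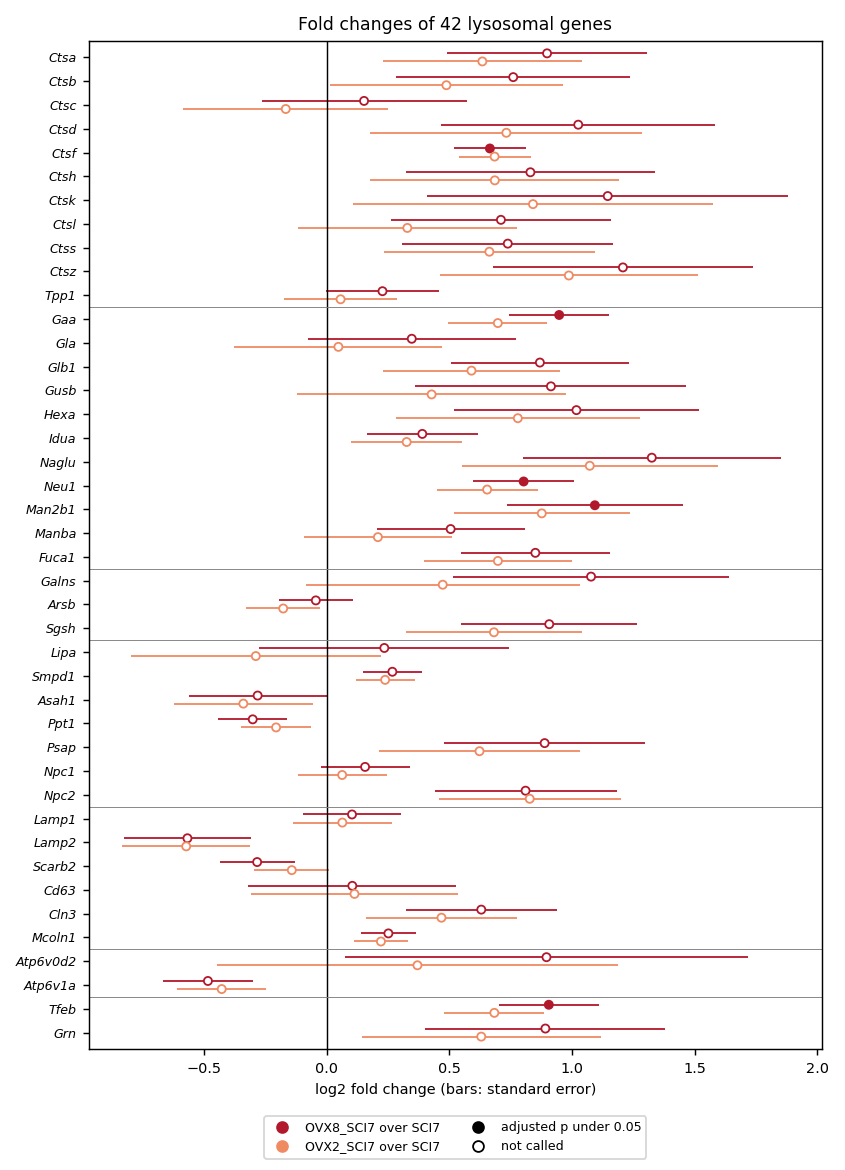
Log2 fold changes over SCI7 of the 42 lysosomal genes in OVX8_SCI7 (upper, dark) and OVX2_SCI7 (lower, light), with bars of 1 standard error; filled points passed the edgeR test. The filled points are Ctsf, Gaa, Neu1, Man2b1 and Tfeb, with log2 fold changes of 0.67 to 1.09 in OVX8_SCI7; Naglu, at 1.33, lies farther from 0 and is open, and the bars of Ctsk and Atp6v0d2 are among the longest.

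The libraries of a group spread widely for most genes of the set, except in OVX8_SCI7. The median ratio of the highest to the lowest library of a gene was 1.28 for the set in OVX8_SCI7, 3.14 in OVX2_SCI7 and 2.48 in SCI7. All genes that averaged 10 CPM or more had 1.31, 1.81 and 1.46 in the same groups. The set was thus as tight as other genes in OVX8_SCI7 and wider in both other groups. The widest ratio in OVX2_SCI7 was that of Ctsk (15.3), and the widest in SCI7 was that of Atp6v0d2 (21.6). The median within-group SD of log2 CPM was 0.581 for the set and 0.283 for those other genes. In OVX8_SCI7 the lowest library was replicate 3 for 19 genes and replicate 2 for 15. In OVX2_SCI7, replicate 1 was the lowest for 30 and replicate 2 for 9. In SCI7, replicate 3 was the lowest for 39 of the 42 genes. Ctsf, Gaa and Tfeb still passed when any 1 library other than OVX8_SCI7 replicate 2 was left out. Neu1 was also lost without OVX8_SCI7 replicate 3 or SCI7 replicate 2. Man2b1 was also lost without any 1 of OVX8_SCI7 replicates 1, 3 and 4, OVX2_SCI7 replicate 4 and SCI7 replicates 1, 2 and 3.

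Across the whole table, genes with GC-rich transcripts had the higher fold changes, and the set did the same. Over 15074 coding genes, Spearman's rho between GC content and the OVX8_SCI7 over SCI7 fold change was 0.82, and over the 42 genes it was 0.63, as a description of points that share the same libraries. The rho of OVX2_SCI7 over SCI7 was 0.79 for coding genes and 0.68 for the set. The 5 called genes had a GC content of 54.1 to 63.2%, above the median of 50.2% for coding genes. At or above that median lay 25 genes of the set, 24 of them with a fold change above 0 and a median of 0.89, against a median of 0.48 for coding genes on that side. Below it lay 17, of which 12 were above 0 and none was called, with a median of 0.23, against -0.41 for coding genes there. On both sides the median of the set was above that of the coding genes. Of coding genes at or above the median GC content, 25.8% were called higher and 0.265% lower. Of coding genes below it, 0.478% were called higher and 30.1% lower.

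After an offset for base composition and transcript length, fitted library by library, the edgeR test left no gene called in OVX8_SCI7 against SCI7, in the set or in the table. The median log2 fold change of the set was then 0.46. Under this offset the log2 fold change was 0.02 for Ctsf, 0.15 for Gaa, 0.16 for Neu1, 0.68 for Man2b1 and -0.03 for Tfeb. Genes of low GC content moved the other way, with 1.15 for Ctsl, 0.99 for Ctss and 1.56 for Atp6v0d2, none of which passed. Every OVX8_SCI7 library lay above every SCI7 library for 13 of the 42 genes under the offset (31%), against 7.27% of all genes, a count chosen after the data were seen. Among the 13 were Ctsb, Ctsk, Ctsl, Ctss, Ctsz and Man2b1, while Ctsf, Gaa, Neu1 and Tfeb were not. Under the offset 2 genes, Smpd1 and Mcoln1, had every OVX8_SCI7 library below every SCI7 library, against 9.78% of all genes. Both changed sign, with a log2 fold change of -0.31 for Smpd1, against 0.27 with no offset, and of -0.34 for Mcoln1, against 0.25. Genes below 0 with no offset also shifted. Under the offset Lamp2 had 0.36, Asah1 0.21 and Ppt1 0.05, while Atp6v1a had -0.08, Scarb2 -0.002 and Arsb -0.19. How much of the GC trend is technical was not tested, and the trend of the libraries cannot be told apart from the groups, as every OVX8_SCI7 library had a positive rho and every SCI7 library a negative one. Each rho, and so its sign, is relative to the mean over the 12 libraries.

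**Figure D4:**
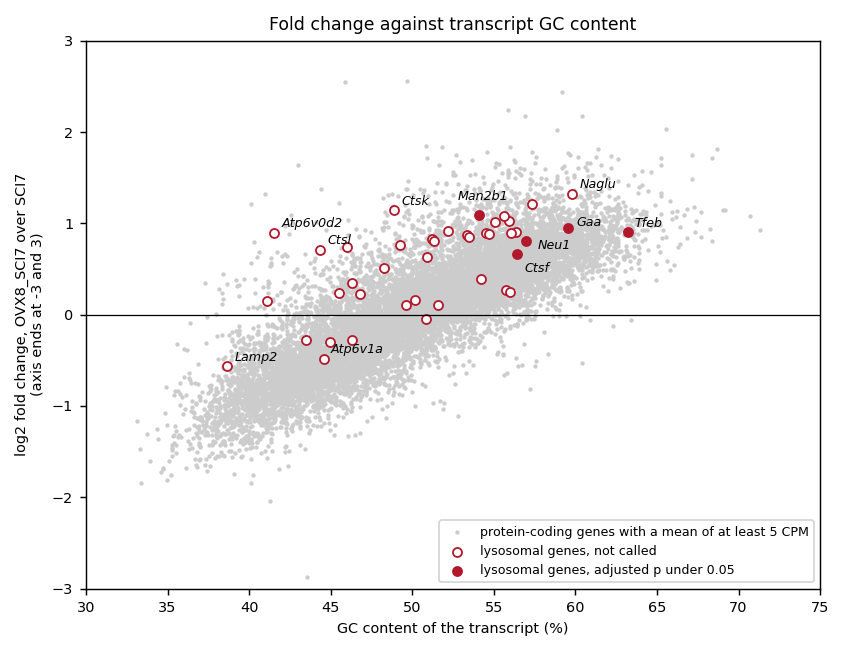
GC content of the transcript (%) against the log2 fold change of OVX8_SCI7 over SCI7; grey points are coding genes that averaged 5 CPM or more, circles the 42 lysosomal genes, filled where the edgeR test called them. Grey points climb with GC content, the filled circles lie between 54.1 and 63.2%, and Atp6v0d2, Ctsl and Ctsk lie above the grey band at lower GC content.

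Other genes of the lysosomal system were read from 7 further lists, of which 119 of 120 genes were tested in OVX8_SCI7 against SCI7. The edgeR test called 17 of them higher and 12 lower, 24.4% together, against 27.5% of all genes called in either direction, and none was called in OVX2_SCI7. Their median log2 fold change was 0.14. All 17 that rose had a GC content of 53.3 to 63.1%, and all 12 that fell had 38.5 to 47.1%.

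Of 28 other hydrolases, 3 rose and 1 fell in OVX8_SCI7. Plbd2, a phospholipase B-like protein, rose by 0.83 on the log2 scale (adjusted p 0.0143 in the edgeR test), Arsa, the arylsulfatase missing in metachromatic leukodystrophy, by 0.80 and Man2b2, a second mannosidase, by 0.99. Of 20 other membrane proteins and transporters, 3 rose and 4 fell. Spns1, a lysosomal lysophospholipid transporter, averaged 51.1 ± 5.95 CPM in OVX8_SCI7, 47.5 ± 12.3 in OVX2_SCI7 and 28.1 ± 3.04 in SCI7. Tmem106b, a lysosomal membrane protein tied to frontotemporal dementia, fell to 116 ± 19.7 CPM in OVX8_SCI7, with 143 ± 60.7 in OVX2_SCI7 and 259 ± 44.7 in SCI7 (adjusted p 0.0144 in the edgeR test for OVX8_SCI7). Mfsd8, mutated in a neuronal ceroid lipofuscinosis, fell by 0.70.

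Of 18 other proton pump subunits, 2 rose and 2 fell in OVX8_SCI7, which is as divided as the pair in the set. Atp6v0c, which forms the proton-carrying ring, had a log2 fold change of 0.66 and Atp6v1f of the stalk 0.82, while Atp6ap2, an accessory protein, had -0.73. Of 12 sorting genes, 2 rose and 2 fell: Gga1, an adaptor that loads enzymes for transport, had 0.98, and the retromer subunits Vps35 and Vps26a had -0.71 and -0.67.

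Of 17 genes of the MiT/TFE factors and of mTORC1 at the lysosome, 3 rose and 2 fell. Rptor, the scaffold of mTORC1, had a log2 fold change of 0.69, Fnip1, a partner of folliculin, -0.94 and Rheb, the activating GTPase, -0.53. Tfe3, Mitf and Tfec, relatives of Tfeb, are named here after their values were seen. Tfe3 rose by 0.66, while Mitf (-0.43) and Tfec (0.27) did not pass. Of 6 tested cathepsin inhibitors 1 rose, Cst3 (cystatin C), at 978 ± 208 CPM in OVX8_SCI7, 1018 ± 261 in OVX2_SCI7 and 613 ± 82.8 in SCI7. Cst7 and Cst6 did not pass, with log2 fold changes of 0.88 and 0.82. Of 18 autophagy genes 3 rose and 1 fell, with 0.54 for the cargo receptor gene Sqstm1, 0.71 for Map1lc3a and -0.47 for Atg12.

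Marker genes of myeloid cells were highest and lowest in the same libraries as the set, but not in the same order within the ovariectomy groups. The list of 11 myeloid markers, none of them in the set, summed to 6958, 6314, 6457 and 6012 TPM in OVX8_SCI7, 1967, 3910 and then 7756 and 8227 in OVX2_SCI7, and 2580, 2926, 1027 and 3935 in SCI7, in replicate order. The OVX8_SCI7 libraries were all above the SCI7 libraries (exact two-sided permutation test, p = 0.0286, which is the smallest that 4 against 4 allows, and 0.0857 after adjustment over 12 such tests). Replicate 1 of OVX2_SCI7 had the lowest sum of its group and was its lowest library for 30 genes of the set, and replicate 3 of SCI7 had the lowest sum of its group and was its lowest library for 39. Within OVX8_SCI7 the order was the reverse at both ends. Replicate 4 had the lowest myeloid sum and the highest share of TPM held by the set (3.34%). Replicate 1 had the highest sum and the lowest share (2.66%). All 11 markers had a fold change above 0 in OVX8_SCI7, and 4 of the 11 were called, against 11.9% of all genes called higher. The complement genes C1qa and C1qb, the most abundant of the list, averaged 1413 and 1437 TPM in OVX8_SCI7, 1239 and 1162 in OVX2_SCI7 and 493 and 501 in SCI7.

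The 10 markers of phagocytic lesion myeloid cells summed to 41134 to 49022 TPM in OVX8_SCI7, 9525 to 62639 in OVX2_SCI7 and 6054 to 29784 in SCI7, and had a median log2 fold change of 1.26 in OVX8_SCI7 over SCI7. Of the 10, 2 were called higher, against 11.9% of all genes. The 8 markers of homeostatic microglia, by contrast, summed to 358 to 455 TPM in OVX8_SCI7, 312 to 408 in OVX2_SCI7 and 312 to 414 in SCI7, with 1 of 8 called higher and 3 lower, against 11.9% and 15.6% of all genes. The 7 markers of osteoclasts and giant macrophages summed to 86.2 to 125 TPM in OVX8_SCI7, 22.8 to 135 in OVX2_SCI7 and 17.3 to 60.1 in SCI7, so OVX8_SCI7 was above every SCI7 library. Most of that sum was Acp5, an acid phosphatase that macrophages express as well, which averaged 72.9 TPM in OVX8_SCI7, 48.3 in OVX2_SCI7 and 24.1 in SCI7. Of the 7 markers 4 were tested and none was called. Dcstamp, Ocstamp and Calcr had group means of 0.0625 to 0.355 TPM.

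Single markers of other cell types were also called in OVX8_SCI7 against SCI7. The 6 skeletal muscle markers had a median log2 fold change of 1.89, with Actn3 and Myh4 called higher, and summed to 9.33 to 99.0 TPM in OVX8_SCI7, 3.15 to 25.5 in OVX2_SCI7 and 8.71 to 31.4 in SCI7. The 7 T and B cell markers summed to 3.44 to 5.86 TPM in OVX8_SCI7, 3.53 to 6.94 in OVX2_SCI7 and 0.990 to 2.42 in SCI7, and of the 3 tested Cd8a was called higher. The 6 fibroblast markers had a median of 0.85 with none called. The 7 astrocyte markers had a median of -0.51, with 4 below 0 and Gja1 called lower, and the 8 oligodendrocyte markers had a median of -0.01 with none called. Of neutrophil, neuron, sensory neuron and endothelial markers none was called. What part the numbers of these cells or of myeloid cells have in the values of the set was not tested.

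**Figure D5:**
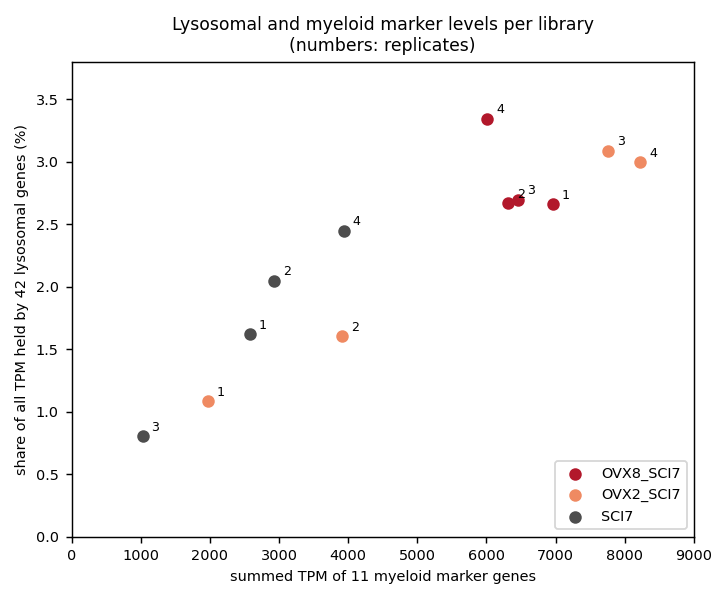
Summed TPM of 11 myeloid markers against the share of all TPM held by the 42 lysosomal genes (%), 1 point per library, numbered by replicate. The 4 OVX8_SCI7 libraries and OVX2_SCI7 replicates 3 and 4 are highest on both axes, and OVX2_SCI7 replicate 1 and SCI7 replicate 3 are lowest on both.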

How the data were processed

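The labels set the groups and replicate numbers, give 1 batch for all 12 samples and call them biological replicates. Among the tools named in the submitters' processing notes are HISAT2 2.2.1, RSEM 1.3.3 and fastp 0.23.4, and the build named is GRCm39. Kit, strand setting and annotation release are not given in the sources used here. Overlapping and antisense genes may share reads. The authors deposited expected counts, estimated values that need not be whole, and these were rounded here. They also deposited TPM and FPKM, which were used for levels and as alternatives. Each table has 3 columns that match no sample, 9 in all, and they were not used. Under the same sample name the deviations of counts correlated with those of TPM and FPKM at 0.933 or more, and at most at 0.845 with any other sample. Within each group, no pair of libraries was alike within sampling noise (chi-square per gene at least 13.3). The 525 genes without a symbol stayed in the tests.

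Rounded counts were filtered with filterByExpr, scaled by TMM and tested with the robust quasi-likelihood F-test of edgeR 4.0.16 in R 4.3.3, with all 12 libraries in 1 model of the group alone. Values of p were adjusted by Benjamini-Hochberg over 17820 genes, with a threshold of 0.05. CPM use the TMM-scaled totals. The analysis was tested on simulated data. For all 42 genes, the longest coding transcript in GENCODE vM21 (GRCm38) gave GC content and length. The GC offset was fitted per library over genes of at least 5 CPM, as a spline of 5 degrees of freedom. The alternatives were DESeq2 1.42.0 and its size factors, other filters, limma 3.58.1, TPM and FPKM with a pseudocount, fewer libraries, the GC offset and the replicate number as a block. The counts of genes without overlap under other scalings were added after seeing the data. The 42 genes, the further lists and the rules were chosen with earlier results of these data known. Values in every library are given for the 8 genes with the smallest p in OVX8_SCI7 against SCI7 and for Tfeb, Grn, Lamp1, Ctsd and Atp6v0d2, and of each further pathway list the 3 genes with the smallest p are named.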

Additional observations from a re-analysis of the deposited data

Results flagged for a closer look

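Among 126 groups of 4 libraries (42 genes in 3 groups), 4 held a library far from the others by Dixon's test at 95%, where chance gives about 1 in 20 groups. All 4 were low values of the same library, SCI7 replicate 3. Arsb had 139 CPM there, against 200.5 CPM in the nearest of the other SCI7 libraries. Asah1 had 127 CPM, against 231 in the nearest. Lamp1 had 847 CPM, against 1319 in the nearest. Cd63 had 184 CPM, against 429 in the nearest. None of these genes was called in any comparison of the edgeR test. The same library had the lowest share of TPM held by the set and the lowest sum of myeloid markers, and why was not tested.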

How the results depend on the processing

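In OVX8_SCI7 against SCI7, the 4893 genes called became 3257 with no low-count filter, 2973 and 2850 with limma-trend on log2(TPM + 1) and log2(TPM + 0.1), 7426 with the 8 libraries alone, 7720 without OVX2_SCI7 replicates 1 and 2, 11211 with limma-voom and quality weights and 0 with the GC offset. Genes of the set called higher, 5 in the analysis as reported, were 9 with DESeq2 (16.5% of all genes were then called higher), 16 with the 8 libraries alone (20.4%), 17 without OVX2_SCI7 replicates 1 and 2 (20.5%), 21 with quality weights (32.2%) and 0 with the GC offset. Genes of the set called lower were 1 with DESeq2 (19.5% of all genes) and 1 on either TPM scale (9% with log2(TPM + 1) and 8.51% with log2(TPM + 0.1)). They were 1 with the 8 libraries alone (22.5%), 1 without OVX2_SCI7 replicates 1 and 2 (21.4%) and 5 with quality weights (30.7%). Under the GC offset Tfeb had a log2 fold change of -0.028, the one called value that changed sign. Leaving out each library in turn gave 0 to 6710 genes called, 0 to 10 of the set called higher and 0 to 1 lower, with 0 calls without OVX8_SCI7 replicate 2, which is also the deepest library. Without OVX2_SCI7 replicate 1, 10 genes of the set were called higher, against 17.3% of all genes.

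In OVX2_SCI7 against SCI7, the count of 0 genes called became 2 with the 8 libraries alone, 8 with the GC offset, 12, 16 and 29 with limma-trend on log2(TPM + 0.1), log2(TPM + 1) and log2(FPKM + 1), 14 with no filter, 704 with limma-voom, 1144 with a stricter filter, 3683 with DESeq2, 7141 without OVX2_SCI7 replicates 1 and 2 and 9682 with quality weights. Genes of the set called higher were 1 with the stricter filter (3.47% of all genes), 1 with limma-voom (1.29%) and 4 with DESeq2 (11%). They were 22 without replicates 1 and 2 (19.9% of all genes) and 24 with quality weights (26.9%). Those called lower were 1 without replicates 1 and 2 (18.9% of all genes) and 3 with quality weights (27.4%). Leaving out each library in turn gave 0 to 6264 genes called, 0 to 9 of the set higher and 0 to 1 lower. The highest counts came without OVX2_SCI7 replicate 1, where 17.1% of all genes were called higher and 17.6% lower. In OVX8_SCI7 against OVX2_SCI7, DESeq2 called 6 genes, quality weights 1 and leaving out each library 0 to 1, none of the set in any setting. The joint test called 4 of the set, against 14.8% of all genes. That count of 4 became 28 with quality weights, 18 without OVX2_SCI7 replicates 1 and 2 and 1 on either TPM scale. It was 0 with the GC offset and 0 to 9 when each library was left out. Shares of all genes are not given here for the joint test under those settings, so these counts are not a result about the set.

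Genes of the set whose OVX8_SCI7 libraries all lay above SCI7 numbered 24, against 19.6% of all genes. They numbered 17 in TPM (14.6% of all genes), 23 in FPKM (20.5%) and 13 with the GC offset (7.27%). For OVX2_SCI7 that count was 1 (6.13% of all genes). It was 2 by library totals without TMM (5.49% of all genes), 2 in FPKM (5.99%) and 0 with the GC offset (3.44%). When each library was left out it was 1 to 5, for which no share of all genes is given here. The median log2 fold change of the set in OVX8_SCI7 over SCI7 was 0.49 to 0.90 when each library was left out. The labels give no pairing by replicate number. Deviations of same-numbered libraries correlated at -0.73 to 0.62, a mixed range that does not settle whether same-numbered samples were handled together. With the replicate number as a block, 4 genes of the set were called higher in OVX8_SCI7 (7.22% of all genes) and 0 in the joint test. The block with the GC offset gave 1 gene called, 0 of the set in either test and -0.026 for Tfeb. The causes of these differences were not tested. Fold changes over all 42 genes and settings changed sign in 34 of 1092 values for OVX8_SCI7 over SCI7, 61 for OVX2_SCI7 over SCI7 and 142 for OVX8_SCI7 over OVX2_SCI7. All 42 genes averaged at least 30.2 CPM, against a floor of 3 counts at 0.0944 to 0.165 CPM. Whether depth limits the calls was not tested. The edgeR p-values set the difference between groups against the spread between libraries, with 4 libraries a group.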
